A study of Mus musculus with 24 samples.

Results

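Sterol and fatty acid synthesis genes are described here across undifferentiated embryonic stem cells and embryoid bodies with and without a knockdown of Prmt1. The 30 genes were listed by their known roles, but with earlier results of these data known, so their counts are a description. Of them 21 form a sterol arm and 9 a fatty acid arm. Each gene was read from the probe set annotated to its symbol alone, and where a gene had several such sets the one with the highest mean over all arrays was used. This gave values for 29 of the 30 members, 20 sterol and 9 fatty acid, among 19938 genes tested. Acat2, which makes acetoacetyl-CoA at the entry to the mevalonate pathway, had no such set and was left out.

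The study hybridised total RNA to 24 Affymetrix arrays that cover whole transcripts, in 8 groups of 3. All groups are mouse D3 embryonic stem cells, an established line, and carried either a scrambled control sequence (siSCR) or the Prmt1 knockdown (siPRMT1). Prmt1 encodes the main arginine methyltransferase that places asymmetric dimethyl marks on proteins. Each line was sampled in 4 states. The first was undifferentiated cells, in a medium with serum. The others were embryoid bodies, aggregates formed without the cytokine LIF: untreated at day 4, treated with the vehicle DMSO for 12 h, and treated for 12 h with 5 micromol all-trans retinoic acid (ATRA). Before the experiments cells were passaged without feeder cells on gelatin. The sources used here do not give whether the knockdown was stable or transient, nor from how many clones it came. The labels call the 3 arrays of a group biological replicates.

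Cells build cholesterol from acetyl-CoA through mevalonate, isoprenoids, squalene and lanosterol, and they build fatty acids from the same acetyl-CoA by way of malonyl-CoA. Both routes are transcribed under SREBP factors, which are held in the endoplasmic reticulum by INSIG proteins when sterols are plentiful and are cut free when sterols are scarce. SREBP factors bind sterol regulatory elements and E-boxes, often beside sites of the factor NF-Y. Rapidly dividing stem cells need both products for new membranes.

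Promoter sequences are shown first, as a description of the letters around the starts of members. RefSeq promoter windows, from 250 bases before to 50 after a transcription start on build GRCm38.p6, were at hand for 23 of the 30 members (17 sterol including Acat2, 6 fatty acid). The windows shown are those of the 6 sterol members with the largest rises in undifferentiated siPRMT1 cells, chosen after their values were seen, and that of Fads2 from the fatty acid arm, which held none of the marked motifs. They read on the gene's own strand, and capitals mark matches to the NF-Y box CCAAT, which reads ATTGG from the other strand, the E-box CACGTG or the sterol regulatory element core TCACNCCAC, on either strand. No matches of different motifs overlapped (0 cases). The windows are Tm7sf2 at chr19:6067801-6068100 (minus strand), Insig1 at chr5:28071162-28071461 (plus), Cyp51 at chr5:4104648-4104947 (minus), Msmo1 at chr8:64733529-64733828 (minus), Srebf2 at chr15:82147019-82147318 (plus), Hmgcs1 at chr13:119690101-119690400 (plus) and Fads2 at chr19:10101454-10101753 (minus).
Tm7sf2: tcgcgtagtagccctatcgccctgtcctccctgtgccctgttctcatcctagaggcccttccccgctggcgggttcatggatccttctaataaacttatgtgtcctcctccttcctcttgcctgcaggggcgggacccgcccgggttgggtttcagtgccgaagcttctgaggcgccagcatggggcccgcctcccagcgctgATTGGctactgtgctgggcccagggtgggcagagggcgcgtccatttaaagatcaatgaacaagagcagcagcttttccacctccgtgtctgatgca
Insig1: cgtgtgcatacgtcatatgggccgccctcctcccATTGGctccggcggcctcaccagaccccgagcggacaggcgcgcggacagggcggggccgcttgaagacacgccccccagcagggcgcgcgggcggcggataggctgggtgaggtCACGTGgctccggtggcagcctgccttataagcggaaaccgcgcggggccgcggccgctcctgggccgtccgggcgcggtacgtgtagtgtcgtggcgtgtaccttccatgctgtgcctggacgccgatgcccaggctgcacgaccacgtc
Cyp51: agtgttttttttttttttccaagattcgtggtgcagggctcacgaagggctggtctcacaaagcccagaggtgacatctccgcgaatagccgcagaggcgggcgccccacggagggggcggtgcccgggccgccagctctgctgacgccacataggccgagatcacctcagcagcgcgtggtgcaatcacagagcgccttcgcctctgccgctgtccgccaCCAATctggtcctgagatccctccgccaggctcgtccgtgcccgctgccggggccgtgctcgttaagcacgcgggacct
Msmo1: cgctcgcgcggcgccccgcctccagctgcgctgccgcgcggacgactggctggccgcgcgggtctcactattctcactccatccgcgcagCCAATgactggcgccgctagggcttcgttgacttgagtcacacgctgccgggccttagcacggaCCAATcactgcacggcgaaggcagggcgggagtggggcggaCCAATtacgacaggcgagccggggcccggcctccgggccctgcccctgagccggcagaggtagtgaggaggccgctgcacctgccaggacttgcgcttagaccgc
Srebf2: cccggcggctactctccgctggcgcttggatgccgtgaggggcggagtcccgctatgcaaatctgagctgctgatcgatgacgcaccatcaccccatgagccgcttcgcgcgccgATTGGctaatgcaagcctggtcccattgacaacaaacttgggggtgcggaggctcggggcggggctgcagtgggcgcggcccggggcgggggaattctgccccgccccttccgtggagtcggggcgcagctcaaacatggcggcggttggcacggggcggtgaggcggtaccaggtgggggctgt
Hmgcs1: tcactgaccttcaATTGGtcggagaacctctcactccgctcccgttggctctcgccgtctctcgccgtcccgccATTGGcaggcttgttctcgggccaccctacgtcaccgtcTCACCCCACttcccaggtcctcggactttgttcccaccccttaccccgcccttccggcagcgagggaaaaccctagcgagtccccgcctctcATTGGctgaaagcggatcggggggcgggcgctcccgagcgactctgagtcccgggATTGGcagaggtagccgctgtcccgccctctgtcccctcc
Fads2: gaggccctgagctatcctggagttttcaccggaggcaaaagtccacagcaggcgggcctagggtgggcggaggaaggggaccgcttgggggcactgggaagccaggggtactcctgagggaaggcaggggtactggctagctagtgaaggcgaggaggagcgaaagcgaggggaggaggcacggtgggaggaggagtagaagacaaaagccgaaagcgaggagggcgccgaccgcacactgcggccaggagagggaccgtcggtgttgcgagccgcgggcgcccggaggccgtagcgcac
The NF-Y box was found in 16 of the 17 sterol members with a window (94.1%) and in 3 of the 6 fatty acid members (50%), against 42.3% of 17492 protein-coding genes. The GC box GGGCGG, searched on both strands and left in lower case, stood in the same numbers of members and in 49.2% of protein-coding genes. The E-box was found in Dhcr7, Hsd17b7, Insig1 and Sc5d, which is 4 of 17 sterol members (23.5%) against 8.91% of protein-coding genes, and in 0 of 6 fatty acid members. The sterol regulatory element core was found in Hmgcs1, 137 bases before the start, and in none of the other members with a window. It occurred in 1.41% of protein-coding genes. A gene with several windows counted once if any of them held the motif, and these matches describe letters, not sites in use. Whether the motifs bear on the changes below was not tested. Among sterol members called higher in undifferentiated siPRMT1 cells, Tm7sf2, Insig1, Cyp51, Msmo1, Srebf2, Hmgcs1, Lss, Dhcr7, Mvk and Pmvk each held an NF-Y box. Fdft1 and Stard4, also called higher, had no window. Hsd17b7, called lower in undifferentiated siPRMT1 cells, held an E-box and NF-Y boxes. Mvd, Idi1, Nsdhl, Ebp and Sc5d, not called there, held NF-Y boxes, and Fads2, called higher there, held none of the marked motifs.

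Values are log2 units as deposited, and differences are log2 fold changes ± standard error from 1 limma fit to all 24 arrays, over 3 arrays per group (n = 3). The terms called higher and called lower stand for an adjusted p under 0.05, corrected over all genes of a comparison. Prmt1 itself was lower in siPRMT1 cells in every state, at 38.6%, 64.6%, 46.2% and 36.7% of the siSCR level in undifferentiated, day 4, DMSO and ATRA samples. The 6 siSCR arrays of DMSO and ATRA stood apart from the other 18. On the first component of a principal component analysis, with 52.2% of the variance, they lay at 50.1 to 61.2 and the 18 at -26.8 to -9.44. The spread over genes was 1.98 to 2.07 against 2.15 to 2.27. Their correlation with those 18 was 0.951 to 0.973, and replicates within a group correlated at 0.990 to 0.999. Correlations between different groups among the 18 were not taken out for comparison. Tests of these 6 against other arrays are given last, because a batch and the group cannot be told apart in them. Array means over 8 marker genes of embryonic stem cells were 12.1 to 12.8 across the groups. From undifferentiated cells to day 4, 5 of the 8 were called lower and 0 higher in siPRMT1, with changes from -1.32 to 0.0016. In siSCR 1 was called lower and 2 higher. Of all genes 18.4% were called lower and 23% higher in siPRMT1, and 13.7% and 14.5% in siSCR. In a bulk sample fewer cells of a type and less RNA per cell cannot be told apart.

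**Figure D1:**
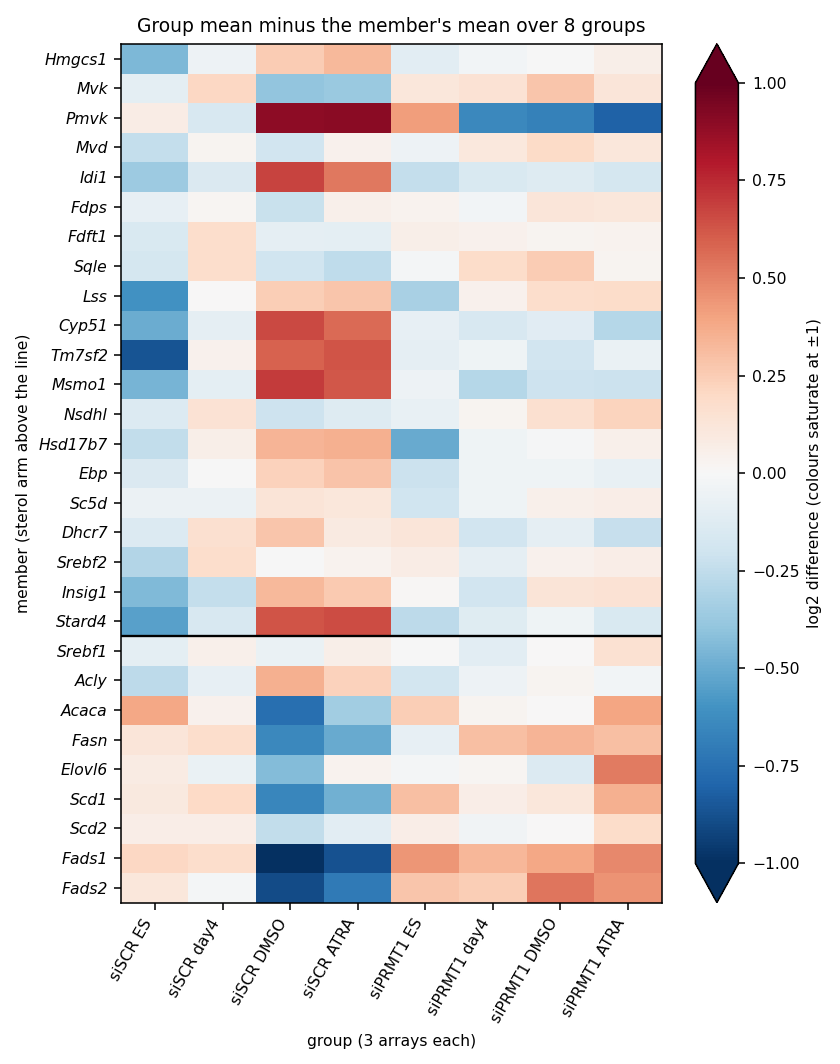
Group means of the 29 measured members over the 8 groups, each gene as log2 units above or below its own mean over 24 arrays, with the sterol arm above the fatty acid arm. Of the 20 sterol members 11 had their lowest mean in undifferentiated siSCR cells, and 7 of the 9 fatty acid members had theirs in siSCR embryoid bodies with DMSO.

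Levels by group are given as a description, and those of the 6 treated siSCR arrays carry the limit just named. In undifferentiated siSCR cells the mean over the 20 sterol members was 10.65 to 10.69 on the 3 arrays, the lowest of the 8 groups. It was 10.87 to 10.91 in undifferentiated siPRMT1 cells, 10.93 to 10.99 in siSCR and 10.84 to 10.91 in siPRMT1 day 4 embryoid bodies, and 10.88 to 10.96 in the 6 treated siPRMT1 arrays. The 6 treated siSCR arrays were highest, at 11.17 to 11.23. The mean over the 9 fatty acid members was 11.82 to 11.92 in the 12 arrays of undifferentiated and day 4 samples. In siPRMT1 it was 11.93 to 11.94 with DMSO and 12.08 to 12.12 with ATRA, and in siSCR 11.27 to 11.33 with DMSO and 11.46 to 11.54 with ATRA. Between the undifferentiated lines neither arm mean overlapped, at 11.86 to 11.88 in siSCR and 11.89 to 11.92 in siPRMT1 for the fatty acid arm, and the gap was wider for the sterol arm.

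In undifferentiated cells most of the sterol pathway was higher with the knockdown. Of 20 sterol members 12 were called higher in siPRMT1, 1 lower and 7 in neither direction, while 7.63% of all genes were called higher and 11.2% lower. The median change of the sterol arm was 0.24, against 0.0061 over all genes, and 17 of the 20 changes were above 0. The calls ran from the start of the pathway to its end and included the regulators. Of the fatty acid arm 3 of 9 were called higher and 1 lower, with a median of 0.079.

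Tm7sf2, a reductase of the sterol ring, changed most. Its 3 arrays read 9.57, 9.41 and 9.50 in siSCR and 10.31, 10.21 and 10.28 in siPRMT1. All 3 siPRMT1 arrays lay above all 3 siSCR arrays, and the change was 0.77 ± 0.061, or 1.71-fold (adjusted p = 2.58e-08). Insig1, whose protein retains SREBP factors in the endoplasmic reticulum and is itself an SREBP target, read 11.43, 11.35 and 11.40 in siSCR and 11.86, 11.84 and 11.82 in siPRMT1. The groups did not overlap and differed by 0.45 ± 0.066 (adjusted p = 5.76e-05). Srebf2, which encodes the SREBP factor that drives sterol genes, read 11.04, 11.12 and 11.16 in siSCR and 11.49, 11.45 and 11.49 in siPRMT1. It too was higher on every siPRMT1 array, by 0.37 ± 0.053 (adjusted p = 3.8e-05).

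Enzymes between squalene and cholesterol followed. Msmo1, the oxygenase that removes methyl groups from the sterol ring, read 12.10, 12.09 and 11.98 in siSCR and 12.47, 12.45 and 12.47 in siPRMT1, a rise of 0.41 ± 0.048 (adjusted p = 4.28e-06). Cyp51, the lanosterol demethylase, read 9.93, 9.75 and 9.77 against 10.31, 10.22 and 10.17, a rise of 0.42 ± 0.084 (adjusted p = 0.00115). Neither gene had overlapping groups. Lss, which closes squalene epoxide to lanosterol, rose by 0.28 ± 0.069, Dhcr7, which performs the last reduction to cholesterol, by 0.26 ± 0.055, and Fdft1, squalene synthase, by 0.21 ± 0.046.

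Of the mevalonate enzymes Hmgcs1, which condenses acetoacetyl-CoA to HMG-CoA, read 11.61, 11.54 and 11.52 in siSCR and 11.90, 11.88 and 11.92 in siPRMT1. The rise was 0.34 ± 0.051 with no overlap (adjusted p = 5.51e-05). The kinases that act on mevalonate and its phosphate rose as well, Mvk by 0.21 ± 0.058 and Pmvk by 0.34 ± 0.072. Without array 3 of siPRMT1 the change of Mvk was 0.19 and its adjusted p 0.0584. Stard4, which carries sterols between membranes, rose by 0.28 ± 0.054.

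Hsd17b7, a sterol ketone reductase of the same pathway, went the other way. Its arrays read 10.15, 10.07 and 10.13 in siSCR and 9.90, 9.85 and 9.83 in siPRMT1, lower on every siPRMT1 array by -0.26 ± 0.045 (adjusted p = 0.000338). The 7 sterol members that were not called were Mvd, Idi1, Fdps, Sqle, Nsdhl, Ebp and Sc5d, with changes from -0.14 to 0.19. Sqle, the epoxidase that acts on squalene, was just outside the threshold at 0.15 ± 0.055 (adjusted p = 0.0614), with no overlap between groups. It was called under 7 of the alternatives listed in the closing section.

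**Figure D2:**
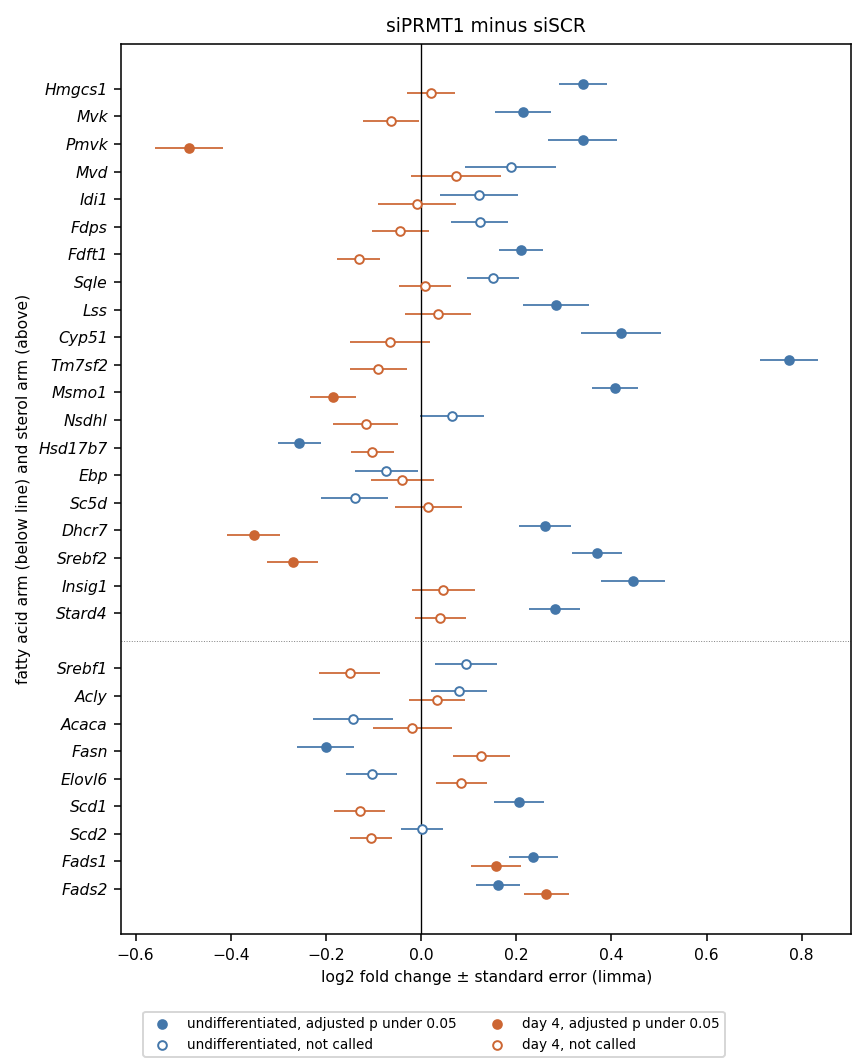
Log2 fold change with standard error (horizontal axis) of each measured member, siPRMT1 minus siSCR, in undifferentiated cells and in day 4 embryoid bodies; filled points were called. In undifferentiated cells 12 sterol members were called higher, with Tm7sf2 the farthest at 0.77, and at day 4 none was (0 of 20) and 4 were called lower.

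In the fatty acid arm Fads1, Scd1 and Fads2, which is 3 of the 4 desaturase genes, were higher in undifferentiated siPRMT1 cells. Fads1, which inserts a double bond into long polyunsaturated chains, read 11.94, 11.90 and 11.93 in siSCR and 12.16, 12.15 and 12.17 in siPRMT1, a rise of 0.24 ± 0.052 (adjusted p = 0.00257). Scd1, which makes monounsaturated fatty acids, rose by 0.21 ± 0.053, and Fads2, the partner of Fads1 in the same chain, by 0.16 ± 0.047. Fasn, the fatty acid synthase, was lower by -0.20 ± 0.060. The calls of Fasn and Fads2 were each lost without any of 3 arrays (Fasn without siSCR 2, siSCR 3 or siPRMT1 3, adjusted p 0.067 to 0.116, and Fads2 without siSCR 3, siPRMT1 2 or siPRMT1 3, adjusted p 0.0576 to 0.0719). Fasn also lost its call after median centring (-0.15, adjusted p = 0.117), with 1 median and SD (-0.12, adjusted p = 0.258) and with only these groups fitted (adjusted p = 0.0558), and Fads2 with only these groups fitted (adjusted p = 0.074). Scd2, the other desaturase gene, changed by 0.0025 ± 0.044, and Srebf1, Acly, Acaca and Elovl6 were not called, with changes from -0.14 to 0.095.

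Around the members, 33 of 41 other genes of sterol and fatty acid handling had a value, and 7 were called higher and 0 lower in undifferentiated siPRMT1 cells (adjusted p under 0.05 in the limma fit, where 5712 of all genes had an unadjusted p under 0.05). Of all genes 7.63% were called higher and 11.2% lower. The 9 other genes of sterol making, uptake and SREBP handling did not follow the sterol arm: 1 was called higher, 3 changes were above 0 and the median was -0.050. Of 12 genes of fatty acid supply and elongation 5 were called higher. Among all 33 the largest rises were those of Acss2 and Cpt1a. Acss2, which activates acetate to acetyl-CoA, rose by 0.52 ± 0.087. Cpt1a, which admits fatty acids to mitochondria and was listed with fatty acid oxidation, rose by 0.42 ± 0.067. Lpin1, Lbr and Elovl5 rose by 0.33, 0.26 and 0.19. Lbr, a reductase with the same sterol activity as Tm7sf2, was listed with the other sterol genes.

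Markers of other cells moved in the same comparison. Of 17 measured fibroblast and feeder markers 11 were called lower in undifferentiated siPRMT1 cells and 0 higher, with array means of 9.02 to 9.08 in siSCR and 8.61 to 8.68 in siPRMT1. Of 14 endoderm markers 4 were higher and 1 lower, with array means of 8.53 to 8.59 and 8.64 to 8.74. Of 8 stem cell markers 5 were higher and 0 lower. Their part in the sterol result was not tested. Another scaling moved the balance over all genes: 40.6% of called genes were higher as deposited, 58.8% after centring each array on its median and 62.5% after giving arrays 1 median and SD. The sterol median was 0.27 to 0.31 under the other scalings.

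At day 4 no sterol member was called higher in siPRMT1. Of 20 members 0 were called higher, 4 lower and 16 in neither direction, while 11.4% of all genes were called higher and 7.01% lower. The median was -0.053, against -0.016 over all genes. Fads2 and Fads1 were called higher and 0 of the 9 fatty acid members lower. Prmt1 itself was at 64.6% of the siSCR level at day 4, against 38.6% in undifferentiated cells. Whether this weaker knockdown bears on the day 4 result was not tested.

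Pmvk, called higher before, was now the lowest. It read 9.89, 9.77 and 9.85 in siSCR and 9.46, 9.38 and 9.20 in siPRMT1, lower on all 3 arrays by -0.49 ± 0.072, or 71.3% of siSCR (adjusted p = 5.66e-05). Dhcr7 read 10.74, 10.84 and 10.89 against 10.48, 10.45 and 10.49, lower by -0.35 ± 0.055 (adjusted p = 9.75e-05). Srebf2 read 11.61, 11.55 and 11.57 against 11.32, 11.39 and 11.22, lower by -0.27 ± 0.053 (adjusted p = 0.000946). None of these groups overlapped. Msmo1 was lower by -0.18 ± 0.048 (adjusted p = 0.00967), and by -0.16 without array 2 of siSCR, where its adjusted p was 0.0621. Tm7sf2, which differed most in undifferentiated cells, read 10.38, 10.41 and 10.43 in siSCR and 10.33, 10.38 and 10.23 in siPRMT1. Its groups overlapped at day 4, and the difference was -0.090 ± 0.061 (adjusted p = 0.357).

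Fads2 was the fatty acid member that differed most at day 4, with 11.22, 11.23 and 11.31 in siSCR and 11.53, 11.55 and 11.46 in siPRMT1. The change was 0.26 ± 0.047 (adjusted p = 0.000364). Fads1 was just inside the threshold at 0.16 ± 0.052 (adjusted p = 0.0404), and it lost the call without any 1 of the 6 arrays, where its adjusted p was 0.0686 to 0.121, and with a replicate block (adjusted p = 0.0519). It also lost the call after quantile normalization (0.13, adjusted p = 0.0982) and median centring (0.15, adjusted p = 0.0555). The same held with 1 median and SD (0.080, adjusted p = 0.465) and with only these groups fitted (adjusted p = 0.0649). Fdft1 stood just outside it at -0.13 ± 0.046 (adjusted p = 0.0515). Of the other pathway genes 3 were higher, led by the acyltransferase gene Gpam at 0.40 ± 0.081, and 7 lower, among them Acacb at -0.29, Cpt1a at -0.27 and Acss2 at -0.25. Of 14 endoderm markers 13 were higher in siPRMT1 (0 lower), with array means of 9.56 to 9.76 in siSCR and 10.38 to 10.50 in siPRMT1, and 7 of 17 fibroblast and feeder markers (0 higher) and 4 of 8 stem cell markers (0 higher) were lower. Their part in these differences was not tested. Of all called genes 61.9% were higher as deposited, 51.2% after quantile normalization and 50.05% with 1 median and SD, and the sterol median stayed below 0 under all 3 other scalings, at -0.060 to -0.11. The median of the fatty acid arm, 0.034, was -0.015 after quantile normalization and -0.036 with 1 median and SD.

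**Figure D3:**
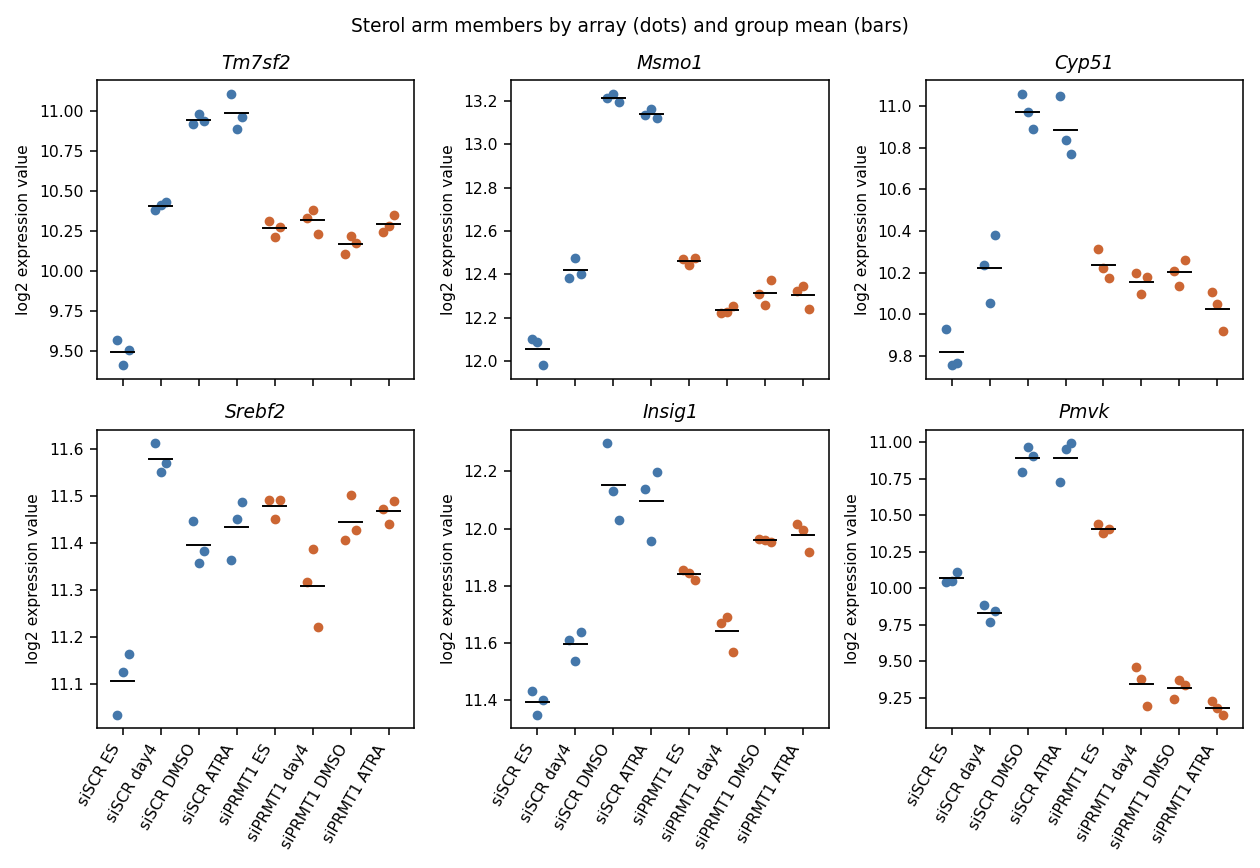
Log2 expression of sterol members on each array (dots) in the 8 groups, with the group mean as a bar, siSCR in blue and siPRMT1 in orange; each panel has its own vertical scale. Tm7sf2 read 9.41 to 9.57 in undifferentiated siSCR cells, below all arrays of the other 7 groups, and Pmvk read 9.13 to 9.46 in the 9 siPRMT1 embryoid body arrays.

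Embryoid body formation raised the sterol arm in siSCR. From undifferentiated cells to day 4, 15 of the 20 members were called higher and 1 lower, with a median of 0.30 against 0.00067 over all genes, while 14.5% of all genes were called higher and 13.7% lower. This comparison and that of the undifferentiated lines share the same 3 undifferentiated siSCR arrays, so their results are not independent. Tm7sf2 rose by 0.91 ± 0.061, or 1.88-fold (adjusted p = 1.83e-10), from 9.41 to 9.57 on the undifferentiated arrays to 10.38 to 10.43 at day 4. Lss read 10.52, 10.54 and 10.56 in undifferentiated cells and 11.28, 11.04 and 11.13 at day 4, a rise of 0.61 ± 0.069 (adjusted p = 5.53e-07). Srebf2 rose by 0.47 ± 0.053, Cyp51 by 0.41 ± 0.084, Hmgcs1 by 0.40 ± 0.051 and Stard4 by 0.38 ± 0.054. The 9 other members called higher rose by 0.20 to 0.36. Among these the calls of Mvd and Insig1 were the least firm. Mvd (adjusted p = 0.0386) lost its call without any 1 of the 6 arrays, with adjusted p of 0.054 to 0.158, and Insig1 (adjusted p = 0.0269) without 4 of them, siSCR undifferentiated 2 and 3 and day 4 1 and 3, with adjusted p of 0.0612 to 0.101.

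Pmvk was the member called lower in siSCR, by -0.23 ± 0.072 (adjusted p = 0.0185). Its adjusted p was 0.0733 to 0.0798 without array 3 of the undifferentiated cells or array 2 of day 4, and it was 0.0806 after median centring. In the fatty acid arm Acaca, the carboxylase that makes malonyl-CoA, fell by 0.35 on the log2 scale and Fads2 by 0.13, and Acly, which cleaves citrate to acetyl-CoA, rose by 0.18. The Fads2 call was lost without any of 5 arrays, all but day 4 array 3 (adjusted p 0.0603 to 0.135), and after median centring (-0.065, adjusted p = 0.362), and the Acly call without undifferentiated arrays 1 or 2 or day 4 array 1 (0.0731 to 0.175). Other pathway genes rose in 12 cases and fell in 5. Me1, a supplier of NADPH, rose by 0.92 ± 0.058 and Npc1, which exports cholesterol from lysosomes, by 0.63 ± 0.076, while Hadhb fell by 0.43 on the log2 scale.

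In siPRMT1 the shares of sterol members called at the same step lay near those of all genes. Of 20 members 5 were called higher, 5 lower and 10 in neither direction, with a median of 0.064 against -0.043 over all genes, while 23% of all genes were called higher and 18.4% lower. Hsd17b7 rose most, from 9.90, 9.85 and 9.83 to 10.33, 10.33 and 10.28, by 0.46 ± 0.045 (adjusted p = 6.23e-08), and Lss rose by 0.36 ± 0.069. Sqle rose by 0.21 ± 0.055. Ebp, a sterol isomerase, and Stard4 rose by 0.17 ± 0.066 and 0.14 ± 0.054 with adjusted p of 0.0424 and 0.0379, and each lost its call without any of 5 arrays. Ebp kept it without day 4 array 3 and Stard4 without undifferentiated array 1, and the adjusted p ran from 0.0578 to 0.181 and from 0.0628 to 0.134 where lost.

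Pmvk read 10.44, 10.38 and 10.41 in undifferentiated siPRMT1 cells and 9.46, 9.38 and 9.20 at day 4. It fell by 1.06 on the log2 scale (SE 0.072), to 47.9% of the undifferentiated level (adjusted p = 2.27e-10). Dhcr7 fell by 0.31 and Msmo1 by 0.23, and Insig1 and Srebf2 by 0.20 and 0.17. The last were called less firmly: Srebf2 changed by -0.13 without day 4 array 3 (adjusted p = 0.0865), and Insig1 lost its call without undifferentiated arrays 1 or 2 or day 4 array 3 (adjusted p 0.0511 to 0.0966). In the fatty acid arm Fasn rose by 0.38 ± 0.060, and Scd1 and Acaca fell by 0.23 and 0.22. Acaca lost its call without undifferentiated arrays 1 or 2 or day 4 arrays 2 or 3, with adjusted p of 0.0902 to 0.139. The other probe set of Acaca changed by -0.051 in this step. With the mean of a gene's sets 1 fatty acid member was called lower in place of 2. Other pathway genes rose in 9 cases, led by Npc1 at 0.72 and Me1 at 0.70, and fell in 8, led by Cpt1a at -0.92, Acss2 at -0.69 and Acacb at -0.57.

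**Figure D4:**
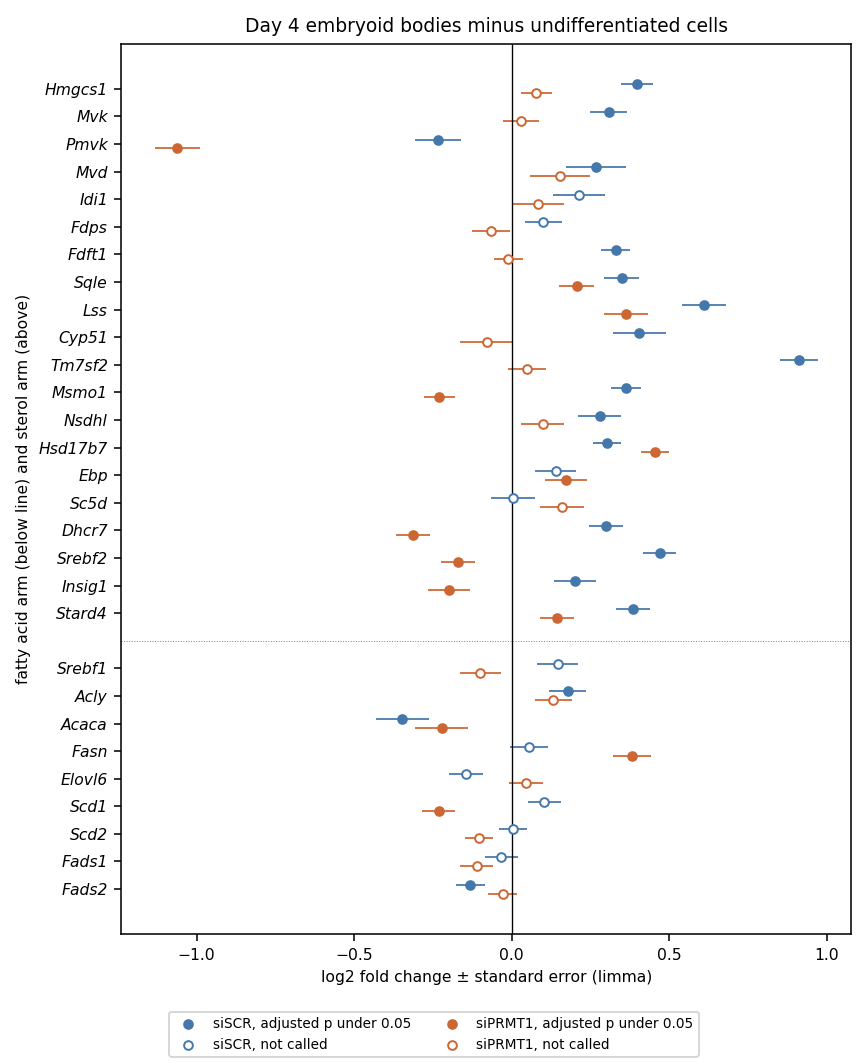
Log2 fold change with standard error (horizontal axis) from undifferentiated cells to day 4 embryoid bodies for each measured member, siSCR in blue and siPRMT1 in orange; filled points were called. Tm7sf2 moved by 0.91 in siSCR and 0.049 in siPRMT1, and Pmvk by -0.23 and -1.06.

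The step to embryoid bodies was tested for a difference between the lines. Of the 20 sterol members 11 differed, all with a smaller rise or a fall in siPRMT1 (0 the other way), with a median difference of -0.26 against -0.019 over all genes, while 15% of all genes were called in the higher direction and 8.83% in the lower. The comparison uses the same arrays as those above. Prmt1 itself changed in this step by 0.63 in siPRMT1 and by -0.11 in siSCR, where it was not called. That difference between lines was 0.74 ± 0.087 (adjusted p = 2.64e-06), and its part in the sterol differences was not tested. Tm7sf2 differed by -0.86 ± 0.086 (adjusted p = 3.91e-07), with 0.91 in siSCR and 0.049 in siPRMT1. Pmvk differed by -0.83 ± 0.102, Srebf2 by -0.64 ± 0.075, Dhcr7 by -0.61 ± 0.078, Msmo1 by -0.59 ± 0.068 and Cyp51 by -0.48 ± 0.119. Srebf2, Dhcr7, Msmo1 and Insig1 were called higher at day 4 in siSCR and lower in siPRMT1. Insig1, Fdft1, Hmgcs1, Mvk and Stard4 differed by -0.40 to -0.24. Stard4 lost its call without siSCR undifferentiated array 3, siSCR day 4 array 3 or siPRMT1 undifferentiated array 1, with adjusted p of 0.0557 to 0.0838. Hsd17b7, Ebp and Sc5d had differences of 0.15, 0.034 and 0.15 and were not called.

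In the fatty acid arm Fasn differed by 0.33 ± 0.085 (adjusted p = 0.00719) and Scd1 by -0.34 ± 0.075 (adjusted p = 0.00221). Fasn read 12.22, 12.27 and 12.28 in undifferentiated siSCR cells and 12.39, 12.23 and 12.31 at day 4, which overlapped, and 12.08, 12.11 and 11.98 and then 12.44, 12.48 and 12.39 in siPRMT1, which did not. With 1 median and SD per array the difference of Fasn was 0.16 (adjusted p = 0.253). Srebf1, which encodes the SREBP factor that drives fatty acid genes, stood just outside the threshold at -0.24 ± 0.091 (adjusted p = 0.058), and Lss likewise at -0.25 ± 0.098 (adjusted p = 0.0767). Other pathway genes differed in 2 cases upward and 7 downward, with Acss2 at -0.77 and Cpt1a at -0.69 the farthest. Of the 9 other genes of sterol making, uptake and SREBP handling 1 was called lower and 0 higher, with a median of -0.0072. Fibroblast and feeder markers fell from undifferentiated cells to day 4 in both lines (15 of 17 lower in siSCR and 16 in siPRMT1, 0 higher), and endoderm markers rose (12 and 14 of 14, 0 lower). Markers also differed between the lines in this step: 10 of 14 endoderm markers were called in the higher direction and 0 in the lower (median 0.48), 5 of 8 stem cell markers lower and 0 higher (median -0.38), and 5 of 17 fibroblast and feeder markers higher and 1 lower. Their part was not tested. Of all called genes 51.3% were higher in siSCR as deposited, 66.1% after median centring and 64.2% with 1 median and SD. For the difference between lines the shares were 63.0%, 48.6% and 41.6%, and 52.1% after quantile normalization, while the sterol median was -0.32 to -0.37. For siPRMT1 the sterol median was -0.036 after quantile normalization and -0.018 with 1 median and SD, so its direction depended on the scaling.

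With retinoic acid a larger share of the fatty acid arm than of the sterol arm was called. In siSCR embryoid bodies 6 of the 9 fatty acid members were called higher with ATRA than with DMSO and 0 lower, with a median of 0.17 against 0.028 over all genes. In siPRMT1 4 of the 9 were called higher and 0 lower, with a median of 0.14 against 0.025. The share of all genes called higher was 11.2% in siSCR and 6.05% in siPRMT1, and lower 12.2% and 5.94%. Of the 20 sterol members 1 was called higher and 1 lower in siSCR, and 0 higher and 1 lower in siPRMT1.

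Elovl6, the elongase that extends palmitate, rose most in both lines. It read 11.95, 12.05 and 11.83 with DMSO and 12.41, 12.44 and 12.40 with ATRA in siSCR, a rise of 0.47 ± 0.054 (adjusted p = 2.41e-06). In siPRMT1 it read 12.27, 12.21 and 12.25 with DMSO and 12.90, 12.95 and 12.85 with ATRA, a rise of 0.65 ± 0.054, or 1.57-fold (adjusted p = 1.9e-08). Every ATRA array lay above every DMSO array of its line. The difference between lines was 0.18 ± 0.076 (adjusted p = 0.226), which was not called and does not show that the rises were equal.

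Acaca read 9.84, 9.92 and 9.90 with DMSO and 10.25, 10.54 and 10.09 with ATRA in siSCR, and 10.62, 10.62 and 10.68 and then 11.07, 11.10 and 10.94 in siPRMT1. The rises were 0.41 ± 0.083 (adjusted p = 0.00152) and 0.40 ± 0.083 (adjusted p = 0.00224), with no overlap in either line. Scd1 rose by 0.17 ± 0.053 and 0.24 ± 0.053 in siSCR and siPRMT1, and Scd2, its close relative, by 0.14 ± 0.044 and 0.18 ± 0.044. After median centring 3 of the 9 fatty acid members were called higher in siSCR and 1 lower: Scd1, Scd2 and Fads2 lost their calls (0.10, 0.078 and 0.13, adjusted p 0.199, 0.234 and 0.0581) and Acly was called lower (-0.19, adjusted p = 0.0297). Scd2 in siPRMT1 then had an adjusted p of 0.061. In siSCR the calls of Scd1 and Scd2 were also lost without DMSO array 3 or ATRA array 1, and for Scd2 without DMSO array 1, with adjusted p of 0.0952 to 0.128 for Scd1 and 0.0507 to 0.0697 for Scd2. In siPRMT1 Scd1 and Scd2 kept their calls without each array in turn.

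Fads1 and Fads2 rose in siSCR by 0.29 ± 0.052 and 0.19 ± 0.047. In siPRMT1 they changed by 0.10 ± 0.052 and -0.083 ± 0.047 and were not called (adjusted p = 0.274 and 0.319). Fads2 was the 1 member whose response differed between lines, by -0.27 ± 0.066 (adjusted p = 0.0258). Over all genes 1.92% differed in the higher direction and 1.32% in the lower. It read 10.45, 10.31 and 10.36 with DMSO and 10.58, 10.52 and 10.58 with ATRA in siSCR, and 11.83, 11.78 and 11.80 and then 11.74, 11.71 and 11.71 in siPRMT1. The call was lost without any of 6 arrays (siSCR DMSO 2, siPRMT1 DMSO 1, 2 or 3 and siPRMT1 ATRA 1 or 2, adjusted p 0.051 to 0.0726) and when these 4 groups were fitted alone (adjusted p = 0.185).

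Of the sterol arm Fdps, which makes farnesyl diphosphate, rose in siSCR by 0.27 ± 0.059, from 11.27, 11.31 and 11.43 to 11.60, 11.61 and 11.61 (adjusted p = 0.00285). Dhcr7 fell there by 0.19 on the log2 scale (adjusted p = 0.0182), with adjusted p of 0.0723 to 0.084 without DMSO array 1 or ATRA array 2 and of 0.242 after quantile normalization. In siPRMT1 Sqle was lower by -0.23 ± 0.055, from 11.53, 11.52 and 11.53 to 11.31, 11.31 and 11.29 (adjusted p = 0.00721). Acss2 rose in both lines, by 0.49 and 0.46, among 3 other pathway genes called higher in siSCR (10 lower) and 2 in siPRMT1 (3 lower). Hsd17b12 and Mid1ip1 were called lower in both. Between lines 0 of the 33 other pathway genes and 0 of the 20 sterol members differed in limma at an adjusted p under 0.05, where 3478 of all genes had an unadjusted p under 0.05. The siSCR arrays of this comparison are the 6 that stood apart. With array weights 3 members were called in siSCR in place of 8. Of 14 endoderm markers 2 were higher and 6 lower with ATRA in siSCR, and 1 and 4 in siPRMT1. Of 8 stem cell markers 3 were lower in each line and 0 higher, and of 17 fibroblast and feeder markers 1 was higher and 2 lower in siSCR and 1 and 3 in siPRMT1. Their part in the fatty acid result was not tested. When these DMSO and ATRA groups were fitted alone, 1 member was called in siSCR in place of 8. Of the called genes 47.8% were higher in siSCR as deposited, 27.4% after centring and 34.8% with 1 median and SD, and in siPRMT1 50.5% and 35.1% after centring.

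**Figure D5:**
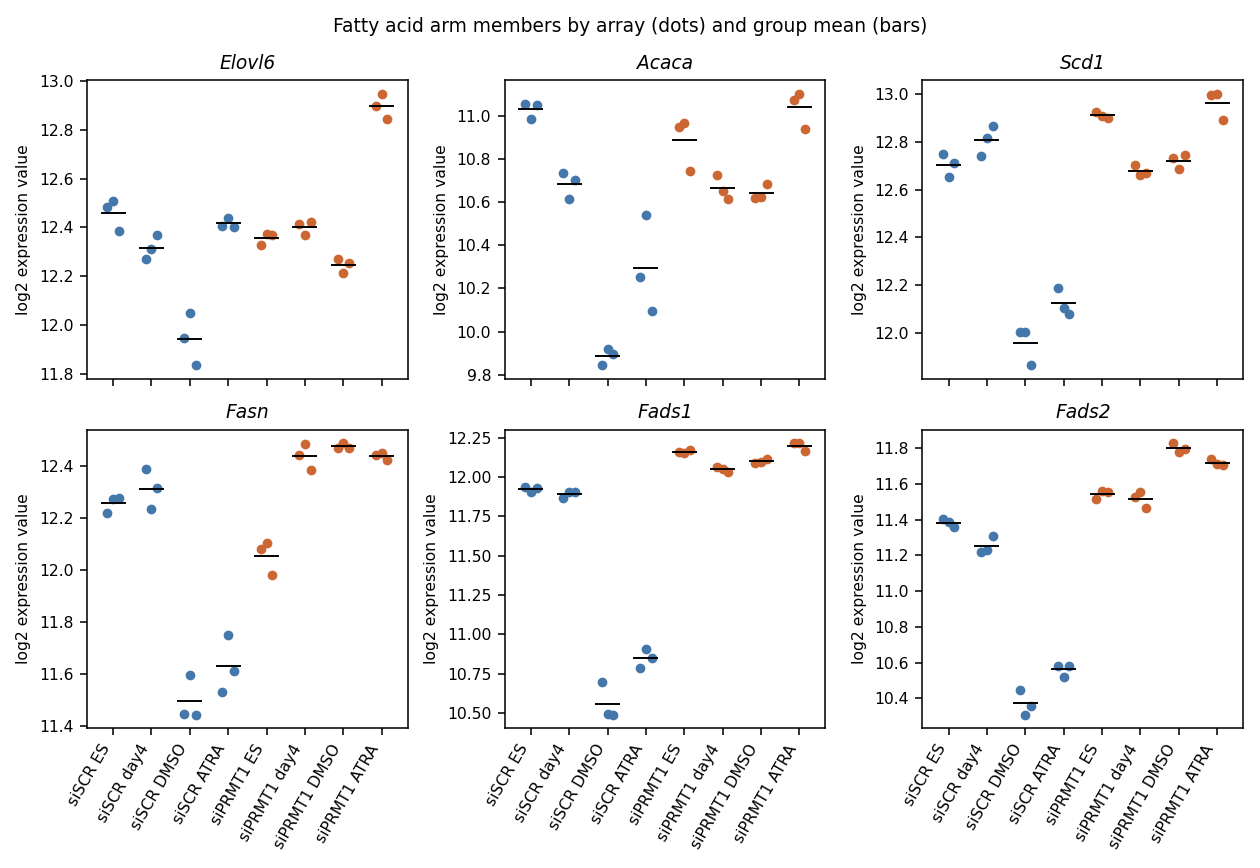
Log2 expression of fatty acid members on each array (dots) in the 8 groups, with the group mean as a bar, siSCR in blue and siPRMT1 in orange; each panel has its own vertical scale. Elovl6 was highest with ATRA in siPRMT1 (12.85 to 12.95), and Fads1 read 10.49 to 10.91 in the 6 treated siSCR arrays against 11.87 to 12.22 in the other 18.

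DMSO against untreated day 4 bodies could be read in siPRMT1, where few genes moved (0.306% of all genes higher and 0.155% lower). Fads2 was called higher by 0.29 ± 0.047, from 11.53, 11.55 and 11.46 to 11.83, 11.78 and 11.80 (adjusted p = 0.00475). It kept its call without each array in turn. Insig1 was called higher by 0.32 ± 0.066, from 11.67, 11.69 and 11.57 to 11.96, 11.96 and 11.95 (adjusted p = 0.0335), and lost the call without any 1 of the 6 arrays (adjusted p 0.0889 to 0.158). The other 27 members were not called, and the sterol median was 0.078 against -0.0024 over all genes. Of 14 endoderm markers 5 were called higher and 0 lower, with all 14 changes above 0 (0.022 to 1.43) and array means of 10.38 to 10.50 untreated and 10.79 to 10.82 with DMSO. Of 8 stem cell and 17 fibroblast and feeder markers 0 were called in limma at an adjusted p under 0.05, where 1616 of all genes had an unadjusted p under 0.05. Their part in the Fads2 and Insig1 calls was not tested. The labels do not say whether treated bodies were older than untreated ones. Over all genes 66.3% of the 92 called were higher as deposited, and 76.5%, 82.4% and 89.3% under quantile normalization, median centring and 1 median and SD.

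The remaining comparisons cross the border between the 6 treated siSCR arrays and the rest, and in these a batch and the group cannot be told apart. For siPRMT1 against siSCR with DMSO 31.3% of all genes were called higher and 34.6% lower, and with ATRA 32.2% and 38%. For DMSO against untreated day 4 in siSCR 30.8% were higher and 30.3% lower. In the sterol arm 6 of 20 were called higher and 11 lower with DMSO, 4 and 10 with ATRA, and 12 and 6 in siSCR with DMSO against untreated. In the fatty acid arm the counts of 9 were 7 and 1, 7 and 1, and 1 and 7. These counts depended on the scaling: with 1 median and SD per array the sterol counts were 1 and 15, 1 and 18, and 15 and 1, and the fatty acid counts 5 and 4, 5 and 3, and 2 and 5. Of 14 endoderm markers 13 were higher in siPRMT1 with DMSO and 12 with ATRA (0 lower), and 6 of 8 stem cell markers were lower in each (1 higher), and their part was not tested. The knockdown comparison with DMSO and that of DMSO with untreated siSCR share the siSCR DMSO arrays.

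Pmvk, Fads1 and Fads2 were farthest apart between the lines there. With DMSO Pmvk read 10.80, 10.96 and 10.90 in siSCR and 9.24, 9.37 and 9.34 in siPRMT1, a difference of -1.57 ± 0.072. It was -1.71 ± 0.072 with ATRA. The siSCR arrays with DMSO were also 1.06 ± 0.072 above untreated siSCR at day 4. Fads1 read 10.70, 10.49 and 10.49 in siSCR with DMSO and 12.09, 12.09 and 12.12 in siPRMT1, a difference of 1.54 ± 0.052, and 1.35 ± 0.052 with ATRA. Fads2 differed by 1.43 ± 0.047 and 1.15 ± 0.047 and Fasn by 0.98 ± 0.060 and 0.81 ± 0.060 with DMSO and ATRA. Acly was the fatty acid member called lower in siPRMT1, by -0.32 and -0.25. In the sterol arm Msmo1 differed by -0.90 and -0.84, Cyp51 by -0.77 and -0.86, Idi1 by -0.81 and -0.70, Tm7sf2 by -0.78 and -0.69 and Stard4 by -0.67 and -0.80, while Mvk was higher by 0.68 and 0.49. None of these 11 members changed direction under another scaling. For 9 others the direction turned under quantile normalization or 1 median and SD in at least 1 of these comparisons: Mvd, Fdps, Fdft1, Sqle, Nsdhl, Srebf2, Srebf1, Elovl6 and Scd2. Of all called genes with DMSO 47.5% were higher in siPRMT1 as deposited and 37.9% and 36.9% after centring and 1 median and SD, and in siSCR with DMSO against untreated 50.4%, 62.0% and 63.2%.

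A second probe set was at hand for 3 members. For Idi1 and Fdft1 it changed by 0.095 and 0.24 in undifferentiated cells with the knockdown, beside 0.12 and 0.21 for the set used. For Acaca it changed by -0.19 beside -0.14 there, and by 0.15 beside -0.018 at day 4, so its direction at day 4 depended on the set. Values are not set against each other between genes, because probe sets differ in brightness for the same amount of RNA.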

How the data were processed

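Expression values per probe set and array were used as deposited by the authors, in log2 units, a base inferred from their range of 2.14 to 14.5. The sources used here do not give how probes were summarised and normalized, and no detection calls were used. Of 35556 probe sets 21789 had 1 gene symbol in the platform annotation, 1621 several and 12146 none. Only sets with 1 symbol were kept, and the brightest set of each gene gave 19938 genes. The fit used limma 3.58.1 in R 4.3.3 with 8 group means, no replicate block and 16 residual df. Benjamini-Hochberg adjustment of p-values ran over all genes in each of 12 comparisons. The median standard error was 0.0932, and precision is limited by the number of arrays. The fit takes the same spread in all groups. Where the labels do not say how cultures were kept apart, p-values measure the spread between these samples.

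All members with a value were counted, and in each comparison up to 6 called members of an arm with the largest changes, those against their arm and those near the threshold were named; where more called members are named, this was chosen after their values were seen. The members and lists were chosen with earlier results of these data known. Alternatives were a replicate block, quantile normalization, median centring, 1 median and SD per array, leaving out the dimmest 25% of genes, the mean of a gene's sets, trend and robust variance, array weights, only the groups compared, a fit without the 6 treated siSCR arrays, and each array left out in turn. The fit was tested on simulated data, with 200 genes changed in undifferentiated siPRMT1 cells in each of 5 draws. In the undifferentiated knockdown comparison 43.6% of 1.25-fold, 83.4% of 1.5-fold and 97.2% of 2-fold changes were recovered. For the difference between lines in embryoid body formation the shares were 14.8%, 52% and 90.4%. Of the calls 6.22% and 4.39% fell on unchanged genes. A member that was not called may therefore have changed by a small amount. In the data 3747 and 4754 genes were called in these comparisons, against 200 changed in each draw. The share recovered in the data may thus differ from the simulated one. RefSeq promoter windows (GRCm38.p6) were searched on both strands. No member-wide test was made.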

Additional observations from a re-analysis of the deposited data

Results flagged for a closer look

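For 13 members the change from undifferentiated cells to day 4 embryoid bodies differed between the lines by the interaction term of the limma fit. The values are siPRMT1 minus siSCR on the log2 scale. Among the mevalonate enzymes Pmvk differed by -0.83, Hmgcs1 by -0.32 and Mvk by -0.28. Among the enzymes from squalene to cholesterol Tm7sf2 differed by -0.86, Dhcr7 by -0.61, Msmo1 by -0.59, Cyp51 by -0.48 and Fdft1 by -0.34. Of the regulators and carriers Srebf2 differed by -0.64, Insig1 by -0.40 and Stard4 by -0.24. In the fatty acid arm Scd1 differed by -0.34 and Fasn, in the other direction, by 0.33. For 1 member, Fads2, the change with ATRA differed between the lines, by -0.27.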

How the results depend on the processing

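Each of the 12 counts of called members was compared with its value under every alternative. Array weights moved 4 of them: day 4 siPRMT1 against siSCR had 12 members in place of 6, ATRA against DMSO 3 in place of 8 in siSCR and 13 in place of 5 in siPRMT1, and DMSO against untreated siPRMT1 4 in place of 2. Fitting only the groups compared left 1 member for ATRA in siSCR and 0 for its difference between lines, which had 1 member as reported, 3 after quantile normalization and 2 with trend and robust variance. The other counts stayed within 1.5 times. With 1 array left out, the counts were 14 to 17 in undifferentiated siPRMT1 against siSCR, 4 to 5 at day 4, 24 to 25 with DMSO and 21 to 23 with ATRA. They were 15 to 18 and 9 to 11 for embryoid body formation in siSCR and siPRMT1 and 12 to 16 for its difference, 6 to 9, 5 and 0 to 2 for ATRA, and 1 and 25 to 27 for DMSO against untreated in siPRMT1 and siSCR. Of 157 called member results 132 kept the call without each array of their groups and 25 lost it without at least 1.

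Where the siSCR arrays of DMSO or ATRA were compared with others, 28 member results turned direction. For siPRMT1 against siSCR with DMSO these were Srebf2 (-0.14) and Srebf1 (-0.19) after quantile normalization, and Fdps (-0.064), Fdft1 (-0.37), Nsdhl (-0.011), Srebf2 (-0.35), Srebf1 (-0.21), Elovl6 (-0.15) and Scd2 (-0.30) with 1 median and SD. With ATRA they were Fdps (-0.18), Fdft1 (-0.035), Sqle (-0.0046), Srebf2 (-0.22) and Srebf1 (-0.22) after quantile normalization, and Mvd (-0.29), Fdps (-0.41), Fdft1 (-0.43), Sqle (-0.13), Nsdhl (-0.079), Srebf2 (-0.42), Srebf1 (-0.23), Elovl6 (-0.093) and Scd2 (-0.37) with 1 median and SD. For DMSO against untreated siSCR they were Fdps (0.13), Fdft1 (0.18), Srebf2 (0.18), Elovl6 (0.038) and Scd2 (0.18) with 1 median and SD. The cause was not tested.

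Counts over all genes moved by more than 1.5 times mainly with array weights: 3747 to 7218 and 3669 to 6106 for the knockdown in undifferentiated cells and day 4, 5632 to 8969 for siSCR embryoid body formation, 4754 to 7688 for its difference, 4663 to 1567 and 2391 to 7640 for ATRA in siSCR and siPRMT1. Fitting only the groups compared gave 544 for ATRA in siSCR and 135, in place of 646, for its difference. That difference had 304 to 897 calls with 1 array left out. DMSO against untreated siPRMT1 had 92 calls, and 56 with 1 median and SD, 145 with trend and robust variance, 2536 with array weights, 286 without the 6 siSCR arrays and 29 to 36 with 1 array left out.

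The replicate block changed 1 of 348 member results, Fads1 at day 4 (adjusted p = 0.0519), and left 5 members called there. Whether arrays with the same number were prepared side by side is not given by the labels. Deviations of same-numbered arrays correlated above 0.1 in 5 of 30 pairs from 10 comparisons, with a range of -0.50 to 0.51. In 8 of these 30 the best partner carried the same number. With 3 arrays per group these correlations cannot decide whether the samples were paired.

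Members near the threshold moved across it with 3 arrays per group. Signal over background was not measured. The 6 siSCR arrays that stood apart limit every comparison that crosses them.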
